A study of Rattus norvegicus with 6 samples.

Results

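The nuclear genes of the mitochondrial respiratory chain were compared between crushed and intact rat sciatic nerves. Members were all rows of the deposited gene table whose symbol starts with Nduf, Uqcr or Atp5, starts with Cox4 to Cox8, or is Sdha, Sdhb, Sdhc or Sdhd. This gave 94 of the 30957 genes of the table, under 89 symbols. Complex I (Nduf) held 36 rows, complex II (Sdh) 4, complex III (Uqcr) 8, complex IV (Cox) 20 and complex V (Atp5) 19. The other 7 rows were Ndufaf genes, whose products assemble complex I and do not remain in it. RNA-seq was performed on 6 sciatic nerves of adult male Sprague-Dawley rats, 3 of them crushed and 3 left intact on the contralateral side. The methods describe proximal stumps of the crushed nerves collected at 4 days postinjury (dpi), and the sample labels give no time point. No group carried a transgene or a drug treatment. Neither the labels nor the methods say whether a library held 1 nerve or a pool, or which crushed and intact nerves came from the same rat.

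The respiratory chain sits in the inner mitochondrial membrane. Complex I takes electrons from NADH and complex II takes them from succinate, and both pass them to coenzyme Q. Complex III moves them to cytochrome c, complex IV gives them to oxygen, and complex V uses the resulting proton gradient to make ATP. Complexes I, III, IV and V are mosaics: a few subunits are encoded by the mitochondrial chromosome, all others by nuclear genes, whereas complex II is nuclear throughout. In a peripheral nerve, mitochondria lie in axons, in Schwann cells and in the other cells of the sheath, but the RNA of a nerve comes mostly from the cells whose nuclei lie in it.

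Before the comparison, the tissue label was checked against marker genes. Defining Schwann cell markers were at or near 0 in all 6 libraries, with 0 to 1 counts for Mbp, 0 to 1 for Sox10 and 0 to 3 for S100b. The macrophage genes Ptprc, Cd163, Adgre1 and C1qa had 0 counts, as did the fibroblast genes Dcn, Lum and Col1a2. The proliferation gene Mki67 had 37037 to 43837 counts per library. Other genes of the same lists were present. Among the Schwann cell markers, Pmp22 had 821 to 968 counts, Prx 590 to 690 and Erbb3 89 to 135. Among the fibroblast markers, Thy1 had 2431 to 3372, Pdgfra 1114 to 1525 and Col1a1 293 to 537. Cd68, with 29 to 52 counts, and Csf1r, with 18 to 29, were the 2 macrophage markers that passed the filter on low counts. The libraries labelled sciatic nerve thus lacked several defining markers of its main cell types, and every value below is a value of these libraries. The summed level of the 12 Schwann cell markers was 68.0 to 72.3 CPM (reads of a gene per library total, after TMM scaling) in intact nerves and 63.6 to 64.8 in crushed nerves, and 5 of the 12 passed the filter on low counts. Summed levels of the 8 fibroblast markers were 1389 to 1524 CPM against 987 to 1019, of which fibronectin (Fn1) gave a mean of 1253 and 835. Those of 7 endothelial and mural markers were 178 to 194 against 146 to 148, of which Cspg4 gave a mean of 181 and 142. The 10 macrophage markers summed to 1.93 to 3.19 CPM against 2.64 to 3.23, and the 5 proliferation markers to 3010 to 3212 against 2882 to 3015. The 7 neuronal markers summed to 73.7 to 91.5 against 84.6 to 90.1. Nearly all of that came from Uchl1 (mean 52.5 and 52.5) and Nefh (28.8 and 34.2), and the other 5 had under 10 counts in all nerves. The 6 skeletal muscle markers and the 6 adipocyte markers stayed under 1 CPM in sum. The part of these markers in the results on the respiratory chain was not tested. In bulk RNA, fewer cells of a type and less RNA per cell cannot be told apart. Counts on genes summed to between 24844371 and 27139360 per library, so that 3 counts, taken as the smallest level told from 0, were 0.110 to 0.121 CPM. Such floors cover counting error only.

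No nuclear respiratory chain gene differed between crushed and intact nerves at an adjusted p under 0.05. Of the 94 members, 80 passed the filter on low counts and 14 did not, 7 of these with 0 counts in all nerves. With edgeR's quasi-likelihood test, 0 of the 80 were called higher and 0 lower, where 3.12% of all 12393 genes tested were called, 1.47% higher and 1.65% lower. The stricter limits given in the methods, an absolute log2 fold change above 1 with a p under 0.001, also took 0 members, against 0.282% of all genes. At an unadjusted p under 0.05, edgeR's test had 14 of the 80 members (17.5%), 4 higher and 10 lower, beside 16.2% of all genes (6.71% higher and 9.5% lower). In 18 of the 80 (22.5%) the 3 crushed nerves did not overlap the 3 intact nerves, 7 higher and 11 lower, beside 23.0% of all genes (10.8% higher and 12.2% lower). Both shares were near the background.

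The measured differences were small, and the median SE of the log2 fold change was 0.074 for the members and for all genes tested. Log2 fold changes of crushed over intact nerves ran from -0.33 for Atp5j2 to 0.35 for Ndufaf6, and the median stood at -0.011 for the members beside -0.0017 for all genes tested. The members lay above 0 in 34 cases and below 0 in 46. The 95% interval of the fold change lay within 1.2-fold in either direction for 45 members, within 1.5-fold for 75 and within 2-fold for all 80 tested. Of all 12393 genes tested, 6290, 10262 and 11680 had intervals within these limits. Replicates differed by more than sampling noise, and nothing in the labels says that libraries of a group came from separate rats, so the intervals measure the spread between these libraries. Member counts summed to between 0.617% and 0.635% of all counts in intact nerves and between 0.620% and 0.644% in crushed nerves, with means of 0.625% ± 0.0090 (SD, n = 3) and 0.632% ± 0.012. The groups overlapped.

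**Figure D1:**
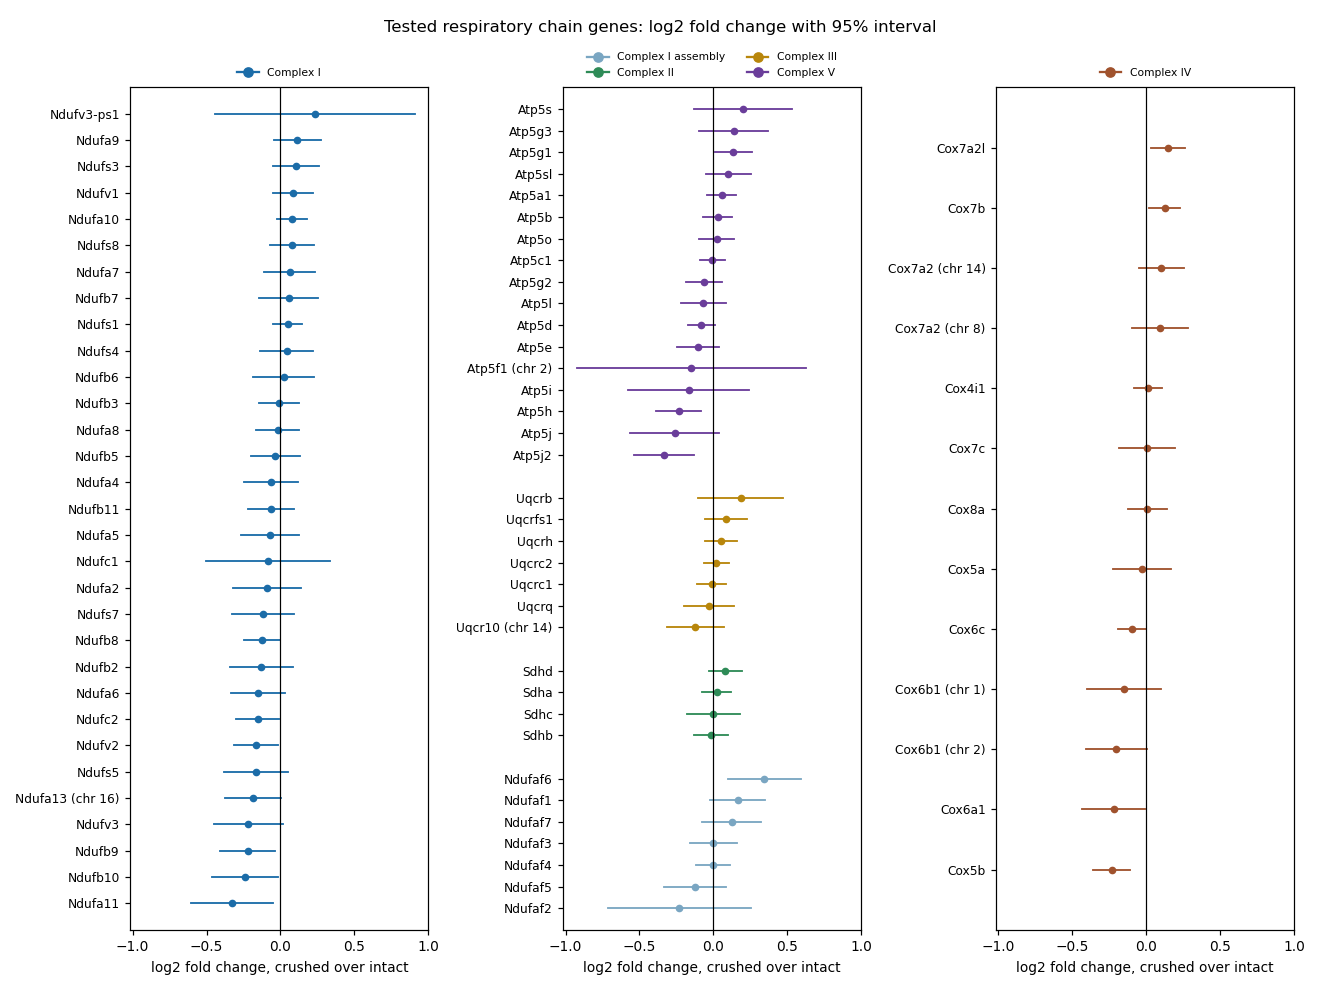
Log2 fold change of crushed over intact nerves for 79 tested members, by complex; points are edgeR estimates and lines 95% intervals, from 3 nerves per group. All points lie between -0.33 and 0.35, and the intervals of 14 members leave out 0.

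The respiratory chain genes are known to share a few transcription factors: Nrf1, GABP (DNA-binding subunit Gabpa) and Yy1, with the coactivators Ppargc1a and Ppargc1b. Nrf1 stood at 71.6 ± 3.0 CPM in intact and 73.3 in crushed nerves, with a log2 fold change of 0.033 (95% interval -0.087 to 0.15). Gabpa, at 167 and 164 CPM, had a value of -0.024 (-0.12 to 0.073), and Yy1, at 40.3 and 39.1 CPM, one of -0.042 (-0.16 to 0.082). Tfam, which packages mitochondrial DNA and takes part in its transcription, had 43.1 and 47.5 CPM and a log2 fold change of 0.14 (-0.017 to 0.29). Ppargc1a was low, with 8 to 35 counts per nerve, and had the largest difference of the list, -1.16 (-2.06 to -0.25), at an adjusted p of 0.19 in edgeR's test. None of the 15 tested regulators was called, and their median log2 fold change was 0.016.

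Short stretches upstream of 6 members are shown because they hold the letters these factors are known to bind. Promoters were taken from RefSeq (assembly GRCr8), as 250 bases before to 50 bases after each gene's start. All 89 symbols matched a RefSeq gene, 18 of them by a synonym, and 76 had a promoter entry. The Nrf1 letters, GCGC, any base, then TGCGC, stood on either strand of 13 of the 76 promoters (17.1%), where 4.71% of all 27457 promoters held them. For CCGGAAG (GABP) the count was 21 (27.6%, against 9.22% of all), for AANATGGCG (Yy1) 17 (22.4%, against 3.33%), and for the common GC box GGGCGG (Sp1) 32 (42.1%, against 34.9%). At least 1 of the first 3 motifs was present in 43 promoters. A match describes the letters alone. The spellings were chosen after their values were seen, and others were tried. The shares are therefore a description and no test of enrichment. The 27457 promoters were not filtered by gene type, whereas the 76 are of protein-coding genes. Matches are in capitals, all stretches end before the start of the gene, and each line runs 5′ to 3′ in the direction of the gene.
Sdha, 2 of 3 Nrf1 matches, both on the other strand, chr1:30764444-30764536, plus strand: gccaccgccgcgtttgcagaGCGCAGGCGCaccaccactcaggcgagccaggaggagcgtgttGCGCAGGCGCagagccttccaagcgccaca
Uqcrc1, 1 Nrf1 match, chr8:118468139-118468188, plus strand: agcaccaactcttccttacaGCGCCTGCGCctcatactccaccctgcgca
Ndufa11, 2 overlapping Nrf1 matches, chr9:1637497-1637552, plus strand: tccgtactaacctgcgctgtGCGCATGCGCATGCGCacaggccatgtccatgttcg
Cox5b, 1 GABP match, chr9:46417803-46417836, plus strand: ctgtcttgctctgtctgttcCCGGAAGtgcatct
Sdhb, 1 GABP match, chr5:158547806-158547852, plus strand: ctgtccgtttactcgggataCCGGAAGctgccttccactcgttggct
Ndufs1, 1 Yy1 match on the other strand, chr9:72073607-72073655, minus strand: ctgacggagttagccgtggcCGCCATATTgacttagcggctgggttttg
Members with and without a match were set side by side, with no test. The median log2 fold change was -0.064 for the 13 tested members with the Nrf1 letters and -0.00056 for the 53 without, 0.0053 and -0.011 for the GABP letters, and -0.087 and -0.0010 for the Yy1 letters.

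Complex I, the NADH dehydrogenase, had 32 tested genes, of which 11 lay above 0 and 21 below, with a median log2 fold change of -0.063. In 5 of the 32 (15.6%) the groups did not overlap, beside 23.0% of all genes. The matrix arm of complex I starts with the N module, which oxidizes NADH. There Ndufs1, the large iron-sulfur subunit, had 237.8, 257.0 and 254.9 CPM in intact nerves 1 to 3 and 253.0, 255.4 and 267.0 in crushed nerves. The groups overlapped, and the log2 fold change was 0.048 (95% interval -0.048 to 0.15). Ndufv1, which binds NADH, had a value of 0.085 (-0.051 to 0.22). Its partner Ndufv2 had 78.4, 68.5 and 64.8 CPM in intact and 62.4, 63.8 and 62.8 in crushed nerves. All crushed nerves lay below all intact nerves, by a log2 fold change of -0.16 (-0.31 to -0.016) that did not pass the test, at an adjusted p of 0.26. Without intact nerve 1 it was -0.076.

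The Q module, where electrons reach coenzyme Q, was centred near 0, with a median of 0.033 over 6 genes and values between -0.12 and 0.11. Ndufs3 stood at 0.11, Ndufs7 at -0.12 and Ndufs8 at 0.077, and the nerves of both groups overlapped in all 3. The membrane arm pumps protons. In its proximal section 6 of 7 tested genes lay below 0 (median -0.15), and in its distal section 7 of 9 (median -0.063). Ndufa11, a proximal subunit, had the lowest value of complex I, with 28.0, 20.1 and 20.9 CPM in intact and 20.1, 18.4 and 16.4 in crushed nerves. Crushed nerve 1 lay above intact nerve 2, and the log2 fold change was -0.33 (-0.60 to -0.047; adjusted p = 0.23). Without intact nerve 1 it was -0.15. Ndufb9, a distal subunit, had 99.0, 75.2 and 83.2 CPM against 71.6, 75.5 and 73.7, so that 1 intact nerve lay among the crushed ones (log2 fold change -0.22, adjusted p = 0.22; -0.10 without intact nerve 1). Ndufb10 and Ndufb8 did not overlap between groups and were lower in crushed nerves, at -0.24 and -0.12, with adjusted p-values of 0.27 and 0.31. Ndufb10 was at -0.15 without crushed nerve 3, and Ndufb8 at -0.067 without intact nerve 1. The highest value of complex I belonged to Ndufv3-ps1, an intron-free copy with about 1 CPM or less and a wide interval (0.23, -0.44 to 0.91).

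Among the assembly factors of complex I, Ndufaf6 was the member with the highest fold change of all. It had 5.02, 4.36 and 4.97 CPM in intact and 6.04, 6.30 and 5.87 CPM in crushed nerves. Each crushed nerve exceeded each intact nerve, with a log2 fold change of 0.35 (95% interval 0.098 to 0.59) and an adjusted p of 0.15. Ndufaf1 also did not overlap, at 0.16 (-0.021 to 0.35). Ndufaf2 had the lowest value, -0.23 with an interval from -0.71 to 0.25, at 1.60 to 2.81 CPM. The median of the 7 factors was -5.3e-05.

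Complex II, succinate dehydrogenase, also belongs to the tricarboxylic acid cycle, and its genes were the most even. Sdha, the flavoprotein that oxidizes succinate, had 83.8, 87.2 and 88.6 CPM in intact and 86.9, 88.5 and 88.3 CPM in crushed nerves, a log2 fold change of 0.022 (-0.074 to 0.12). The iron-sulfur subunit Sdhb was at -0.017 (-0.13 to 0.10) and the membrane anchor Sdhc at -0.00056 (-0.18 to 0.18). The second anchor, Sdhd, had 91.3, 101.5 and 101.8 CPM against 105.2, 103.9 and 102.7. Its groups did not overlap, and the difference of 0.082 (-0.030 to 0.19) had an adjusted p of 0.47.

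Complex III, the cytochrome bc1 complex, had 7 tested members. Of these, 0 had separate groups, beside 23.0% of all genes. In edgeR's test 0 had an unadjusted p under 0.05, beside 16.2% of all genes. The core protein Uqcrc1 had 150.7, 148.3 and 146.0 CPM in intact and 154.6, 145.3 and 141.7 in crushed nerves (log2 fold change -0.011, -0.11 to 0.086). The Rieske iron-sulfur protein Uqcrfs1 was at 0.084 (-0.058 to 0.23). The ends of the range were Uqcrb at 0.18 (-0.10 to 0.47) and Uqcr10 on chromosome 14 at -0.12 (-0.31 to 0.072).

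Complex IV, cytochrome c oxidase, held the member with the smallest p. Cox5b, a zinc-binding subunit of the matrix side, spans chr9:43259709-43262040 of Rnor_6.0 (ENSRNOG00000016660). It had 39.8, 41.4 and 37.6 CPM in intact nerves and 33.2, 33.9 and 33.8 in crushed nerves. All crushed nerves lay below all intact nerves, with the crushed nerves closer to each other than the intact ones. The fold change was 0.849 (95% interval 0.777 to 0.929), with a log2 value of -0.24 ± 0.058 (SE), an unadjusted p of 0.0020 and an adjusted p of 0.059 in edgeR's test. Cox6a1 had 100.1, 87.8 and 110.3 CPM against 95.9, 85.6 and 74.2, with overlapping groups (log2 fold change -0.22, adjusted p = 0.29). Without crushed nerve 3 it was -0.13, and without intact nerve 3 -0.14. On the other side stood Cox7b, with 82.4, 89.5 and 87.5 CPM against 92.4, 97.2 and 93.3, and Cox7a2l, which joins complexes III and IV into supercomplexes, with 93.2, 103.7 and 104.7 against 112.3, 111.6 and 110.1. Neither overlapped between groups, and both were higher in crushed nerves, by log2 values of 0.13 (adjusted p = 0.22) and 0.15 (adjusted p = 0.18). Cox4i1, the regulatory subunit, was even, at 0.0093 (-0.085 to 0.10), and so was Cox8a, at 0.0053 (-0.13 to 0.14). The 13 tested genes of the complex had 7 values above and 6 below 0.

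Several subunits of complex IV have isoforms that are known from other tissues or conditions, and these were at or near the floor. Cox4i2, the lung and low-oxygen partner of Cox4i1, had 0 to 2 counts per nerve, and Cox6a2, the heart and muscle partner of Cox6a1, had 0 to 2. Cox6b2 and Cox7b2, known from testis, Cox8b and Cox8c had 0 counts in all 6 nerves, which allows up to 0.110 to 0.121 CPM per nerve. Cox7a1 was not analysed here. The low-oxygen relative of Ndufa4, Ndufa4l2, had 2 to 11 counts, where Ndufa4 had a mean of 67.1 ± 8.1 CPM in intact and 64.3 in crushed nerves (log2 fold change -0.062, -0.24 to 0.12). Ndufa4 is now known to belong to complex IV despite its name.

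Complex V, ATP synthase, had 7 tested genes above and 10 below 0 (median -0.064). In its catalytic head and central stalk, the 5 genes had a median of -0.0073. Atp5b, the catalytic beta subunit, had 1215, 1352 and 1302 CPM in intact and 1274, 1356 and 1317 CPM in crushed nerves, with a log2 fold change of 0.029 (95% interval -0.070 to 0.13). The alpha subunit Atp5a1 was at 0.056 (-0.042 to 0.15). The small stalk subunits Atp5d and Atp5e did not overlap between groups, at -0.081 and -0.10 in crushed nerves, with adjusted p-values of 0.39 and 0.46. The lowest value of all members lay in the membrane part, in Atp5j2 (subunit f; chr12:11191812-11198369, ENSRNOG00000027049). It had 28.7, 27.1 and 23.4 CPM in intact nerves and 19.1, 22.8 and 21.0 in crushed nerves. The groups did not overlap, with the highest crushed nerve close to the lowest intact one. The fold change was 0.793 (0.689 to 0.913), with a log2 value of -0.33 ± 0.092 (SE) and an adjusted p of 0.091. Atp5h, subunit d of the peripheral stalk (chr10:103967312-103972668, ENSRNOG00000003626), had 68.4, 64.1 and 56.9 CPM against 52.5, 55.8 and 52.5. It did not overlap either, with a fold change of 0.849 (0.765 to 0.943) and an adjusted p of 0.10. The c ring, which turns as protons pass, is made from 3 genes for the same mature peptide. Atp5g1 and Atp5g3 were higher in crushed nerves by log2 values of 0.13 and 0.14, and Atp5g2 lower by -0.064, with no call among them. Atp5s, which had the highest value of the Atp5 genes (0.20, -0.13 to 0.53), and Atp5sl, the older symbol of the complex I assembly factor Dmac2, carry Atp5 names but are not core subunits.

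**Figure D2:**
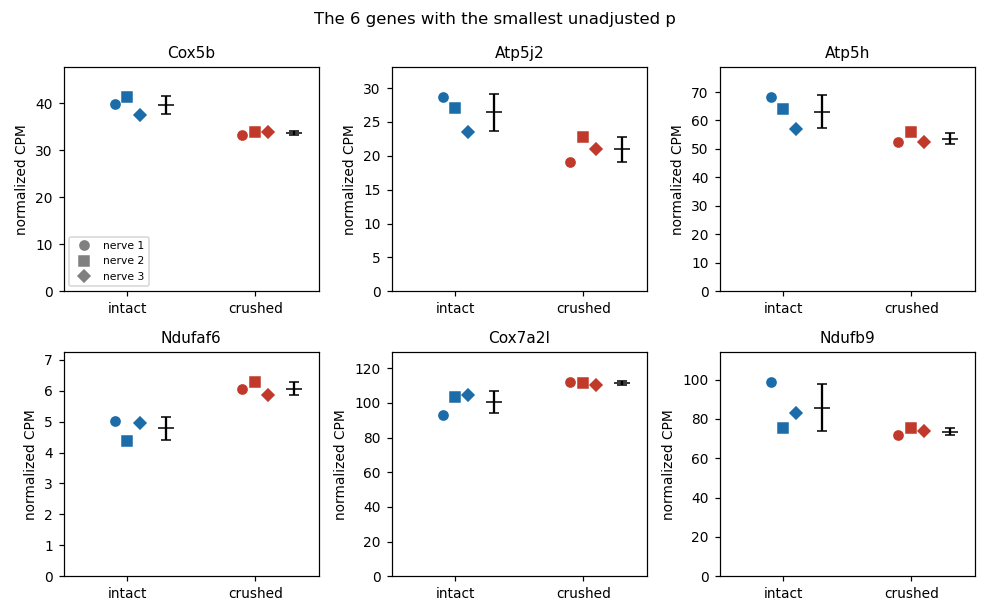
Normalized CPM of the 6 members with the smallest unadjusted p, per nerve, with blue points for intact and red for crushed nerves; the black bar is the mean with its SD (n = 3 per group). Cox5b, Atp5j2 and Atp5h are lower and Ndufaf6 and Cox7a2l higher in all crushed nerves, Ndufb9 overlaps, and none has an adjusted p under 0.05.

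Levels were compared between genes per length, as the mean FPKM of the 6 nerves. Medians over the tested genes were 91.5 FPKM for complex III, 87.1 for complex II, 85.8 for complex IV, 73.4 for complex V and 36.8 for complex I, and 9.19 for the assembly factors of complex I. Genes within complexes I, III, IV and V spread far more than these medians did. Those of complex II ran only from 38.3 FPKM for Sdha to 97.5 for Sdhc. Within complex V the mean ranged from 0.150 FPKM for Atp5f1 to 735 for Atp5b, and Atp5b alone took 20.7% of all member counts. The highest in the other complexes were Cox6c (347 FPKM), Uqcrh (192), Ndufb9 (113) and Sdhc (97.5). Some rows of obligatory subunits had very low counts beside those of their partners. Atp5f1, subunit b of the peripheral stalk, had 8 to 12 counts per nerve on 1 row and 0 on a second row, while its stalk partner Atp5o stood at 109 FPKM. Ndufa1, a small subunit of complex I, had 0 counts in all nerves. Uqcrb, at 7.29 FPKM, was the lowest tested gene of complex III. The part of read assignment and annotation in these low counts was not tested, so they do not show that an mRNA was absent.

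**Figure D3:**
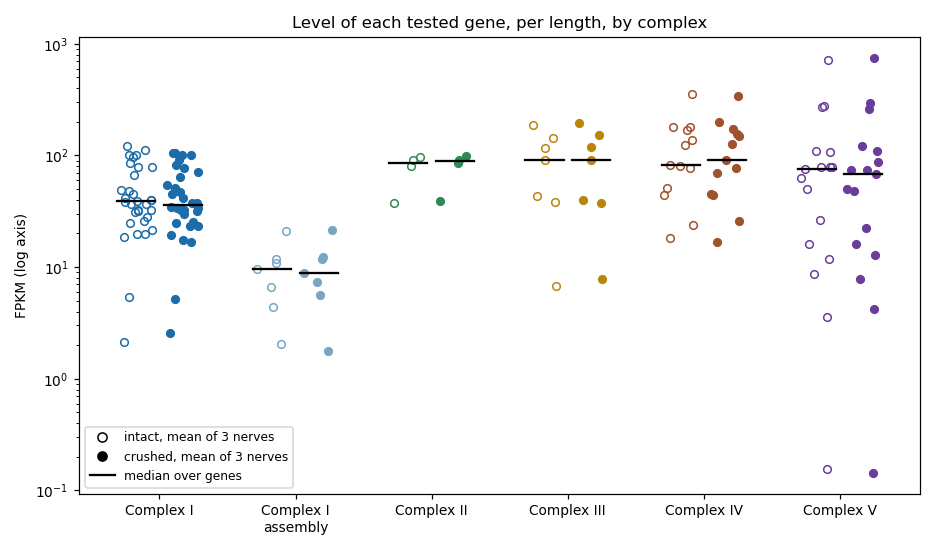
Mean FPKM of each tested member (log axis) in the 3 intact nerves, open circles, and the 3 crushed nerves, filled circles, by complex; black bars are medians over genes. The 2 groups lie at like heights in every complex, from 0.150 FPKM for Atp5f1 to 735 FPKM for Atp5b.

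Some of the counts stood on copies without introns. In 7 rows the counted length equalled the genomic span within 1 base, as in a processed copy of an mRNA. For Cox7a2, the copy on chromosome 14 (chr14:52661966-52662217, Rnor_6.0) held 75.2% of the counts of the symbol, 796 to 1033 per nerve, and the gene with introns on chromosome 8 held 24.8%. For Cox6b1 the copy on chromosome 2 (chr2:211337271-211337531) held 54.2% and the gene on chromosome 1 the other 45.8%. The split between near-identical rows depends on how reads that match both were counted, so the rows of these symbols are uncertain one by one. The copies and the genes had like differences, 0.10 and 0.091 on the log2 scale for Cox7a2, and -0.20 and -0.15 for Cox6b1, with no call. For Ndufa13 and Uqcr10 the copies held 1.40% and 0.224%. The other rows that failed the filter were Ndufb4l1, Cox6c1 and Atp5hl1, with 0 to 8 counts.

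The subunits encoded by the mitochondrial chromosome were set beside their nuclear partners. Of its 13 protein genes, 12 lay below 0 on the log2 scale (median -0.26), beside 6267 of all 12393 genes tested. These 13 genes share a chromosome and the same libraries and are not independent replicates. Of the 13, 2 passed the adjusted limit in edgeR's test, both lower, where 1.65% of all genes tested were called lower. Mt-nd1, a membrane subunit of complex I, fell from 687 ± 81 to 543 ± 32 CPM (log2 fold change -0.34, 95% interval -0.51 to -0.17, adjusted p = 0.037). Mt-nd3, another membrane subunit, fell from 29.7 ± 2.7 to 22.4 ± 2.3 CPM (-0.41, -0.61 to -0.20, adjusted p = 0.040). With a replicate block Mt-nd3 was not called (adjusted p = 0.070) and Mt-co1 was (log2 fold change -0.18, adjusted p = 0.041). Both calls were lost without intact nerve 1, intact nerve 3 or any 1 of the crushed nerves, with adjusted p-values of 0.050 to 0.16 for Mt-nd1 and 0.073 to 0.15 for Mt-nd3. In complex I the 7 mitochondrial genes had a median of -0.29, beside -0.063 for the 32 nuclear rows, Ndufa4 and the copy Ndufv3-ps1 among them. In complex IV it was -0.26 for 3 genes beside 0.0053 for 13. Mt-cytb, the mitochondrial subunit of complex III, was at -0.26 beside a nuclear median of 0.020. In complex V, Mt-atp8 was at -0.20 and Mt-atp6 at 0.89, the latter with 18292 counts in crushed nerve 3 and 4746 to 5576 in the other 5 nerves. Without that nerve Mt-atp6 was at -0.073.

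Per nerve, the 13 mitochondrial genes had 3.15, 2.73 and 3.01 counts for each count on a member in intact nerves and 2.70, 2.55 and 2.53 in crushed nerves. All crushed nerves lay below all intact nerves in this ratio. Without Mt-co1, which took 56.5% to 61.0% of the mitochondrial counts, the ratios were 1.25, 1.07 and 1.31 against 1.07, 1.01 and 1.06, and intact nerve 2 was level with crushed nerve 1. The difference between the 2 genomes was not tested, since the members were chosen with results of these libraries known. The methods describe digestion with RNase R, which degrades linear RNA, and the labels do not mention it. Its part in these ratios was not tested.

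**Figure D4:**
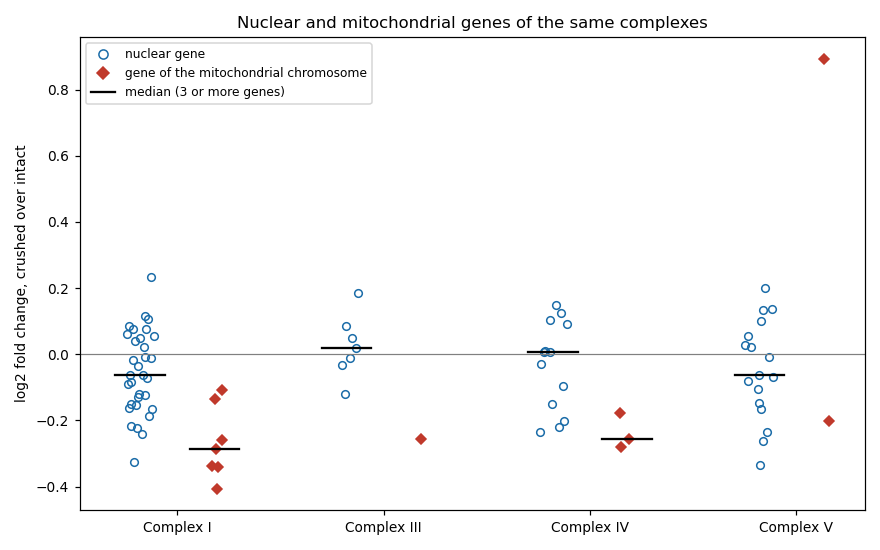
Log2 fold change of crushed over intact nerves for nuclear genes, open circles, and genes of the mitochondrial chromosome, red diamonds, of the same complexes; bars are medians over groups of 3 or more genes. In complexes I and IV every mitochondrial gene lies below 0, and Mt-atp6 in complex V stands at 0.89.

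Short and long members were also described apart, with no test of the difference. The 80 tested genes were split at the median counted length of 808.5 bases. Of the 40 shorter genes 14 lay above 0 and 26 below, at a median log2 value of -0.087, and of the 40 longer genes 20 lay on each side, at a median of 0.010. The shorter genes held 9 of the 10 members with an unadjusted p under 0.05 in edgeR's test that were lower in crushed nerves, among them Cox5b and Atp5j2. At that limit 9.5% of all genes tested were lower. Across these 80 genes, which share libraries and are not independent replicates, length and log2 fold change had a Spearman correlation of 0.31, where all 12393 genes had 0.021. Without crushed nerve 3 the correlation of the members was 0.21. The median counted length of all genes tested was 2396 bases, so the 2 correlations cover unlike lengths. Other genes of like length were not compared. Crushed nerve 3 had the lowest CPM of the 6 nerves in 22 members, and its median deviation on the shorter members was -0.10 on the log2 scale. Intact nerve 1 had the highest CPM in 27 members and the lowest in 21. Relative to a trend on length fitted over all genes, the median log2 fold change of complex I was -0.034 in place of -0.063, and that of complex V -0.039 in place of -0.064.

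**Figure D5:**
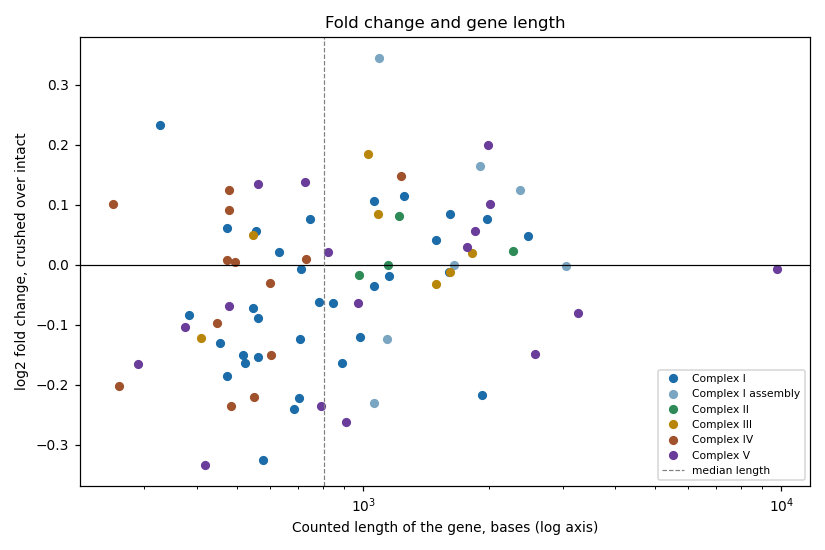
Log2 fold change of crushed over intact nerves against counted gene length (log axis) for the 80 tested members, coloured by complex; the dashed line is the median length of 808.5 bases. To its left 26 of 40 genes lie below 0, to its right 20 of 40.

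The wider pathway was described by lists of related genes. With edgeR's test 0 genes were called in any nuclear list, beside 3.12% of all genes tested. The 41 assembly factors of complexes I to V had 26 values above 0 and 15 below, with a median log2 fold change of 0.032. With edgeR's test 2 had an unadjusted p under 0.05 (4.88%, beside 16.2% of all genes), Ndufaf6 and Cox18. Cox18, an insertion factor of complex IV, stood at 4.24 CPM in intact and 5.46 in crushed nerves (log2 0.36, adjusted p = 0.16 in that test). The list of the tricarboxylic acid cycle had 15 tested enzymes, with Pdhb and Dlat of pyruvate dehydrogenase among them. These 15 lay between -0.081 and 0.065 with a median of -0.0047. In edgeR's test 0 of them had an unadjusted p under 0.05, beside 16.2% of all genes. Among the cycle enzymes, Cs, citrate synthase and a common measure of mitochondrial content, had 250 CPM in intact and 259 in crushed nerves (0.049, -0.038 to 0.14). The list of adenine nucleotide and phosphate carriers also held the porins Vdac1, Vdac2 and Vdac3 and the uncoupling protein Ucp2. Its 7 tested genes had a median of 0.017, with 4 above 0 and 3 below. The ADP/ATP carriers Slc25a4 and Slc25a5 stood at -0.030 and 0.051, and the lowest was Ucp2 at -0.24 (-0.53 to 0.060). Of the 13 genes of electron carriers and coenzyme Q synthesis, Cycs, cytochrome c, was the lowest, with 86.6 CPM in intact and 73.4 in crushed nerves on its main row. That difference of -0.24 (-0.38 to -0.093) had an adjusted p of 0.091 in edgeR's test and of 0.036 in DESeq2, and a second Cycs row was at -0.041. The 18 rows of glycolysis enzymes had a median of 0.036, 10 above 0 and 8 below.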

How the data were processed

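RNA-seq was performed by the authors on 3 crushed and 3 intact rat sciatic nerves. The deposited table holds a read count per Ensembl gene and nerve, not normalized, and FPKM values that the authors computed from those counts with 1 length per gene and the summed count of a nerve. The submitters' processing notes name HISAT2, StringTie 1.3.0 and the build Rnor_6.0. Coordinates of genes are those of the table. Sample titles gave the nerve of each of the 12 value columns, its group and its replicate number.

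Counts of all 30957 genes were fitted together with edgeR 4.0.16 (limma 3.58.1, R 4.3.3): TMM factors, edgeR's expression filter (12393 genes kept), the quasi-likelihood test and Benjamini-Hochberg adjustment over all genes tested, with no replicate block. CPM are normalized with the TMM factors, and gene length was recovered from count and FPKM. The calculation was tested on simulated counts.

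Alternatives were a replicate block, DESeq2 1.42.0, RLE factors, library totals alone, no filter, limma on log2(FPKM + 0.1) and log2(FPKM + 1), each nerve left out, symbols on several rows left out, a length trend removed and an unadjusted p. Summing the rows of 1 symbol was added after the data were seen.

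Members, gene lists and tests were chosen with earlier results of these data known. Named were, by rule, the extremes of each complex, the tissue isoforms, the core subunits and any called member. Other members are named by their p or level, and the promoter motifs were chosen, after their values were seen. Stricter spellings of the Nrf1 motif and a longer one for Yy1 were also tried. The values of 1 member and of 1 marker are not reported here one by one.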

Additional observations from a re-analysis of the deposited data

How the results depend on the processing

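The absence of called members held in most settings. With a replicate block on the numbers in the titles, 0 members were called, 300 genes in all against 387, and the member median was -0.011. Same-numbered nerves correlated at -0.015, 0.0059 and 0.076, and differently numbered ones at -0.073 to 0.073. From 3 nerves per group, such values cannot show whether a shared number means a shared rat, and that was not tested. DESeq2 called 1 member lower, Atp5j2 (log2 -0.33, adjusted p = 0.044), limma on log2(FPKM + 1) called 1 lower, Cox5b (-0.21, adjusted p = 0.049), and leaving out 1 nerve called 0 to 2 lower, Atp5h (adjusted p = 0.031) and Atp5j2 (0.040) both without intact nerve 3. Over these settings the adjusted p of Cox5b ran from 0.049 to 0.22. An unadjusted p under 0.05 gave 4 higher and 10 lower. In the pathway lists, where 2 genes were called, DESeq2 called 9 (8 mitochondrial genes and the nuclear Cycs), the replicate block 2 (Mt-nd1 and Mt-co1 in place of Mt-nd3), both limma fits 0, and leaving out 1 nerve 0 to 6. Medians moved by over the spread between nerves for complex V with limma on log2(FPKM + 1) (-0.016) and, without 1 nerve, between -0.077 and -0.0065, for complex I between -0.081 and -0.011, and for complex IV between -0.059 and 0.057, or to 0.036 with the length trend removed. Of 288 values of 33 named rows in other settings, 275 kept their sign. The other 13 were differences near 0. Sdhc turned to 0.00062 with the block, 0.0016 with DESeq2, 0.0021 with RLE factors, 0.016 with library totals, 0.0025 with no filter and 0.017 with both limma fits. Uqcrc1 and Sdhb turned to 0.0057 and 0.00023 with library totals, and to 0.0047 and 0.0011 with both limma fits. Leaving out 1 nerve turned the sign of Sdhc (-0.076 to 0.072), Atp5b (-0.0065 to 0.067), Uqcrc1 (-0.048 to 0.016), Sdhb (-0.056 to 0.033), Cox8a (-0.031 to 0.067), Ndufs7 (-0.21 to 0.012), Ndufa4 (-0.13 to 0.042), Cox4i1 (-0.013 to 0.039) and Ndufv3-ps1 (-0.0019 to 0.55). The cause of these moves was not tested. Where a fit left 2 nerves in a group, both groups shared 1 estimate of the spread.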
